A study of Saccharomyces cerevisiae with 5 samples.

Results

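The genes described here encode the machinery that brings proteins into yeast mitochondria and folds them in the matrix. They were chosen by gene symbol: 36 genes for the outer membrane translocase TOM, the SAM insertion complex, the small chaperones and the oxidative relay of the intermembrane space, the inner membrane translocases TIM22 and TIM23, the import motor, the matrix chaperones and the processing peptidase. Of the 5379 genes that had a named probe, 35 belonged to this set, and TOM5, a small TOM subunit, had no named probe and was not analysed here. All 35 had a value on each of the 3 arrays and were tested together with 4789 other genes.

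Saccharomyces cerevisiae S288C, a laboratory strain, was grown with shaking at 25 °C in YPD, a rich medium with 2% glucose, 2% polypeptone and 1% yeast extract. Treated cultures received copper(II) sulfate to 10 mM during exponential growth and were sampled after 2 h, and the untreated cultures grew for 2 h without it. PolyA RNA of treated cells was labelled with Cy5 and that of untreated cells with Cy3 on each of 3 arrays of 2 colours, which the series describes as independent biological samples. Every array had the same dye orientation, so a dye bias of a single gene cannot be told apart from a difference between treated and untreated cells. Whether each array had an untreated culture of its own is not stated. A p-value here therefore reflects how much these 3 arrays differ from each other, in the gene itself and in a variance pooled over all tested genes. Those differences may be technical in part.

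Nearly all mitochondrial proteins are made in the cytosol. Receptors of the TOM complex recognise them and the Tom40 channel passes them on: barrel proteins to SAM, cysteine-rich proteins to the Mia40 and Erv1 relay, carrier proteins through the small Tim chaperones to TIM22, and proteins with a presequence to TIM23. The import motor, built around the matrix Hsp70 protein Ssc1, pulls presequence proteins inward, the Mas1 and Mas2 peptidase removes the presequence, and Hsp60 with its lid Hsp10 folds the product.

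Values are log2 ratios of the 2 channels, read as treated over untreated. The table does not state its direction; the labels name the treated channel first, which makes this one likely, and it gives the copper-binding metallothionein gene CUP1-1 a mean of 4.33 ± 1.53 (SD, n = 3) and the copper transporter gene CTR1 a mean of -3.13 ± 0.95. Every higher and lower below would exchange places under the other direction. A ratio compares the share of a transcript in the mRNA of both cultures, so a lower share in all cells and in a part of the cells cannot be told apart, and it holds no level, so the strain was not checked against marker genes and no gene's abundance is set against another's. Array 1 held values for 5367 spots. Array 2 held 5264 at high and 2853 at low scanner power, and array 3 held 5952 and 4370. The number of arrays limits the precision.

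The import and matrix chaperone genes moved in both directions. Of 35 tested, 7 rose and 5 fell (limma adjusted p under 0.05 over all genes), beside 23.5% of all 4824 genes tested, 11.5% upward and 12% downward. The 12 genes called were 34.3% of those listed. TOM6, TOM7, TOM20, TIM8, TIM17, TIM18 and HSP10 rose, and TIM50, TIM54, MGE1, MDJ1 and HSP78 fell. All 12 had 1 sign on the 3 arrays, which is no separate support, because each call rests on the same 3 values. With 2 arrays the counts were 5 up and 2 down without array 1 (302 and 276 of all genes), 4 up and 2 down without array 2 (276 and 218), and 5 up and 4 down without array 3 (573 and 638). The median of the 35 means was 0.094, against -0.044 for all tested genes, and the means ran from -0.93 for MGE1 to 1.10 for HSP10. HSP10 alone reached a 2-fold change.

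**Figure D1:**
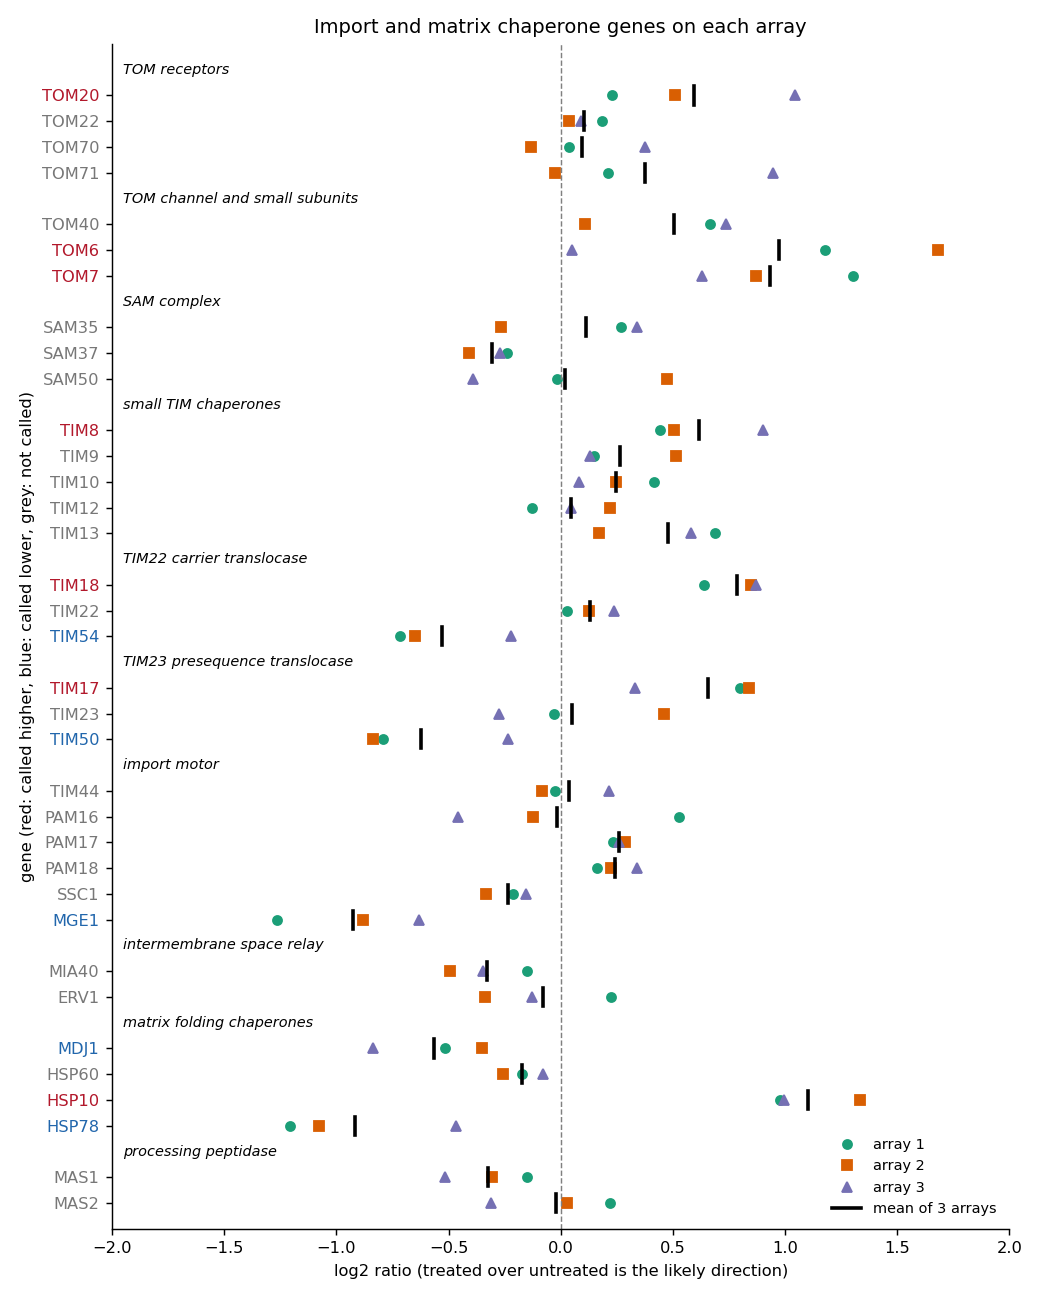
Log2 ratio of each of the 35 tested genes (x axis) on array 1 (circles), array 2 (squares) and array 3 (triangles), grouped by complex, with the mean as a black bar. HSP10 lies between 0.98 and 1.33 and MGE1 between -1.27 and -0.63, while genes such as PAM16 and SAM50 fall on both sides of 0.

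In the TOM complex, the receptor gene TOM20 and the small subunit genes TOM6 and TOM7 rose, and no tested TOM gene fell. TOM7 (YNL070W), whose product tunes how the complex assembles and comes apart, read 1.30, 0.87 and 0.63 on arrays 1, 2 and 3. All 3 values lay well above 0, with a mean of 0.93 ± 0.34, a 1.91-fold rise (limma adjusted p = 0.0105). TOM6 (YOR045W), whose product stabilises the assembled complex, read 1.18, 1.68 and 0.051, so that array 3 showed almost no difference. Its mean was 0.97 ± 0.84 (limma adjusted p = 0.0400), and the call held under only 9 of the 14 alternatives that gave a value. It was lost, among others, without array 2 (mean 0.62, adjusted p = 0.145) and when each probe was tested by itself (0.0722).

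Of the 4 receptor genes of the TOM complex, TOM20 rose. TOM20 (YGR082W), the receptor gene for presequence proteins, read 0.23, 0.51 and 1.04, a mean of 0.59 ± 0.41, which lay at the edge of the threshold (limma adjusted p = 0.0497) and missed it under 9 of 15 alternatives, including those without array 2 (0.0956) and without array 3 (mean 0.37, 0.177). TOM22, the receptor gene that also organises the complex, read 0.18, 0.037 and 0.091. TOM70, the receptor gene for carrier proteins, read 0.037, -0.13 and 0.38, and its paralogue TOM71 read 0.21, -0.026 and 0.94. Both paralogues were highest on array 3 and neither passed the test (limma adjusted p = 0.691 and 0.202). Probe sequences were not used here, so cross-hybridisation between these paralogues was not tested.

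TOM40 (YMR203W), the gene of the channel itself, read 0.67, 0.11 and 0.74. The mean of 0.50 ± 0.34 was not past the threshold (limma adjusted p = 0.0648), although it passed under 5 of 15 alternatives. The 3 tested genes of channel and small subunits had a median of 0.93 and the 4 receptor genes a median of 0.24, which went to 0.10 without array 3 and 0.39 without array 2. Corrected for gene length by a loess curve, the medians were 0.27 and 0.30, so their order turned.

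The SAM complex, which folds barrel proteins into the outer membrane, showed no limma call in either direction, and 0 of its 3 genes had an unadjusted p under 0.05. Among all tested genes 23.5% were called after adjustment, so at least that share had an unadjusted p under 0.05. That share also stands beside the counts of the relay and the peptidase below. SAM50, the core of the complex, read -0.017, 0.47 and -0.39, and SAM35 read 0.27, -0.27 and 0.34, so that each spanned 0 with the arrays disagreeing in sign. SAM37 was negative on every array, at -0.24, -0.41 and -0.27, and its mean of -0.31 ± 0.089 did not pass (limma adjusted p = 0.148). On the low-power scan of array 3, which the series sets aside for quality, SAM37 read 0.20.

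Neither gene of the intermembrane space relay passed the limma test, and 0 had an unadjusted p under 0.05. MIA40, the oxidoreductase gene that forms disulfide bonds in incoming proteins, read -0.15, -0.49 and -0.34 (mean -0.33 ± 0.17, limma adjusted p = 0.135), and ERV1, the sulfhydryl oxidase gene that reoxidises Mia40, read 0.23, -0.34 and -0.13. The 3 values of MIA40 were on 1 side of 0 and those of ERV1 were not.

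Of the 5 small Tim chaperones, which escort hydrophobic proteins across the intermembrane space, TIM8 rose. TIM8 (YJR135W-A) read 0.44, 0.51 and 0.90, with a mean of 0.62 ± 0.25 (limma adjusted p = 0.0282), a 1.53-fold rise. Its partner gene TIM13 read 0.69, 0.17 and 0.58, a mean of 0.48 ± 0.27 that did not pass (limma adjusted p = 0.0623). TIM9 and TIM10, whose products form the essential hexamer, read 0.15, 0.51 and 0.13, and 0.42, 0.24 and 0.083. They were above 0 on all arrays, at means of 0.26 ± 0.22 and 0.25 ± 0.17, but not past the threshold (limma adjusted p = 0.238 and 0.249). TIM12, whose product docks that hexamer on TIM22, stood at 0.046 ± 0.17. The call of TIM8 was lost without any 1 of the 3 arrays, at adjusted p of 0.0620, 0.0587 and 0.0857.

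Members of the TIM22 carrier translocase went opposite ways. TIM18 (YOR297C), a membrane subunit gene related to a succinate dehydrogenase anchor, read 0.64, 0.85 and 0.87, a 1.72-fold rise with little spread (0.79 ± 0.13, limma adjusted p = 0.0106). TIM54 (YJL054W), another subunit gene, read -0.71, -0.65 and -0.22, a fall of 1.44-fold (-0.53 ± 0.27, limma adjusted p = 0.0473). The channel gene TIM22 lay between them at 0.029, 0.13 and 0.24. TIM18 passed under all 15 alternatives, and TIM54 missed the threshold under 7 of them, including those without array 1 (-0.43, adjusted p = 0.297) and without array 2 (-0.47, adjusted p = 0.140).

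The TIM23 presequence translocase was split in the same manner. TIM17 (YJL143W), whose product forms the translocation path together with Tim23, read 0.80, 0.84 and 0.33, a mean of 0.66 ± 0.28 (limma adjusted p = 0.0253). TIM50 (YPL063W), the receptor gene of this translocase, read -0.79, -0.84 and -0.23, a mean of -0.62 ± 0.34 (limma adjusted p = 0.0352). In both genes array 3 gave the value nearest to 0. TIM23 itself read -0.029, 0.46 and -0.28, on both sides of 0. Without array 1 the calls of TIM17 (0.59, adjusted p = 0.137) and TIM50 (-0.53, 0.179) were lost, as they were without array 2 (0.57, 0.0887, and -0.51, 0.122).

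In the import motor, MGE1 fell and the 5 other genes did not pass the test. MGE1 (YOR232W), the nucleotide exchange factor gene of the matrix Hsp70, read -1.27, -0.88 and -0.63, a 1.90-fold fall (mean -0.93 ± 0.32, limma adjusted p = 0.01). This was the 113th lowest mean of 4824, and the call held under all 15 alternatives. SSC1, the gene of the matrix Hsp70 itself, read -0.21, -0.33 and -0.15, lower than 0 throughout but small (-0.23 ± 0.091, limma adjusted p = 0.259). PAM17 and PAM18, which encode a motor organiser and the J-domain protein that stimulates Ssc1, were above 0 on all arrays at 0.26 ± 0.028 and 0.24 ± 0.090, without passing (limma adjusted p = 0.206 and 0.244). PAM16, whose product restrains Pam18, read 0.53, -0.12 and -0.46, and TIM44, the scaffold gene that tethers Ssc1 to the channel, read -0.024, -0.081 and 0.22.

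Matrix folding chaperones held the highest ratio of the set and some of its lowest. HSP10 (YOR020C), the gene of the lid of the Hsp60 folding chamber, read 0.98, 1.33 and 1.00, a 2.15-fold rise (1.10 ± 0.20, limma adjusted p = 0.00353). It ranked 104th from the top among 4824 genes. HSP60, the gene of the chamber, read -0.17, -0.26 and -0.081 (limma adjusted p = 0.404). HSP78 (YDR258C), a matrix disaggregase gene of the Hsp100 family, read -1.21, -1.08 and -0.47, a 1.89-fold fall (-0.92 ± 0.40, limma adjusted p = 0.0132). MDJ1 (YFL016C), the J-domain partner gene of Ssc1 in folding, read -0.51, -0.35 and -0.84 (-0.57 ± 0.25, limma adjusted p = 0.0362). HSP10 and HSP78 passed under every alternative that gave a value, 15 and 14, whereas MDJ1 was lost without any 1 of the 3 arrays (adjusted p of 0.130, 0.0520 and 0.115).

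The processing peptidase genes did not pass the limma test, and 0 had an unadjusted p under 0.05. MAS1, the catalytic subunit gene, was below 0 on every array at -0.15, -0.31 and -0.51 (-0.32 ± 0.18, limma adjusted p = 0.146), and MAS2 read 0.22, 0.027 and -0.31.

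Differences between partners were then read within each array, where both genes come from the same 2 RNA samples. These pairs were chosen after their values were seen and are a description with no test. HSP10 exceeded HSP60 by 1.15, 1.59 and 1.08 log2 units. MGE1 lay below SSC1 by differences of -1.05, -0.55 and -0.48. TIM18 exceeded TIM54 by 1.35, 1.496 and 1.09, and TIM17 exceeded TIM23 by 0.83, 0.38 and 0.61. The direction of each of these 4 differences was shared by the 3 arrays, and an exact sign-flip test over 3 arrays cannot give a two-sided p below 0.25. TIM50 minus TIM23, at -0.76, -1.30 and 0.044, changed sign on array 3, as TIM9 minus TIM10 did on array 1 (-0.27, 0.27 and 0.046).

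**Figure D2:**
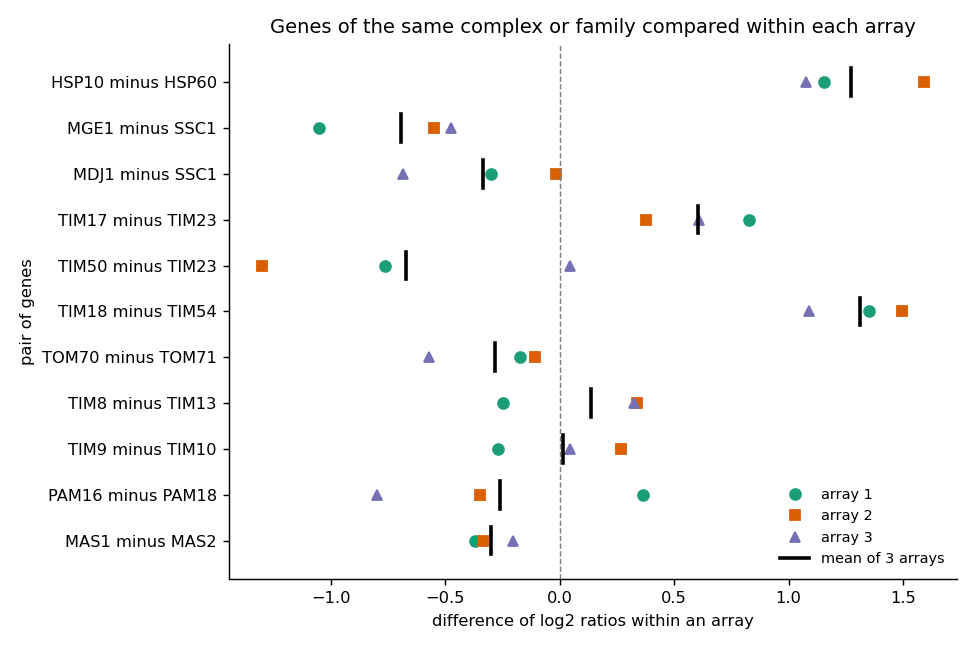
Difference between the log2 ratios of 2 genes of a complex or family on each array (x axis), with the mean as a black bar. HSP10 minus HSP60 and TIM18 minus TIM54 lie above 1.0 on every array, and PAM16 minus PAM18 runs from -0.80 to 0.37.

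Gene length ran alongside these ratios. Length here is that of the gene in the RefSeq table (assembly R64), which can include an intron. The 7 genes that rose were 183 to 579 bases long and the 5 that fell were 687 to 2436 bases long. Among the 18 genes of at most 669 bases, the median length of the set, 7 rose and 0 fell, and the medians on arrays 1, 2 and 3 were 0.32, 0.38 and 0.25. Among the 17 longer genes, 0 rose and 5 fell, with medians of -0.15, -0.31 and -0.23. All 4824 tested genes divided at the same length differed in the same direction: of 891 shorter genes 204 rose and 66 fell (median 0.17), and of 3933 longer genes 352 rose and 512 fell (median -0.084).

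**Figure D3:**
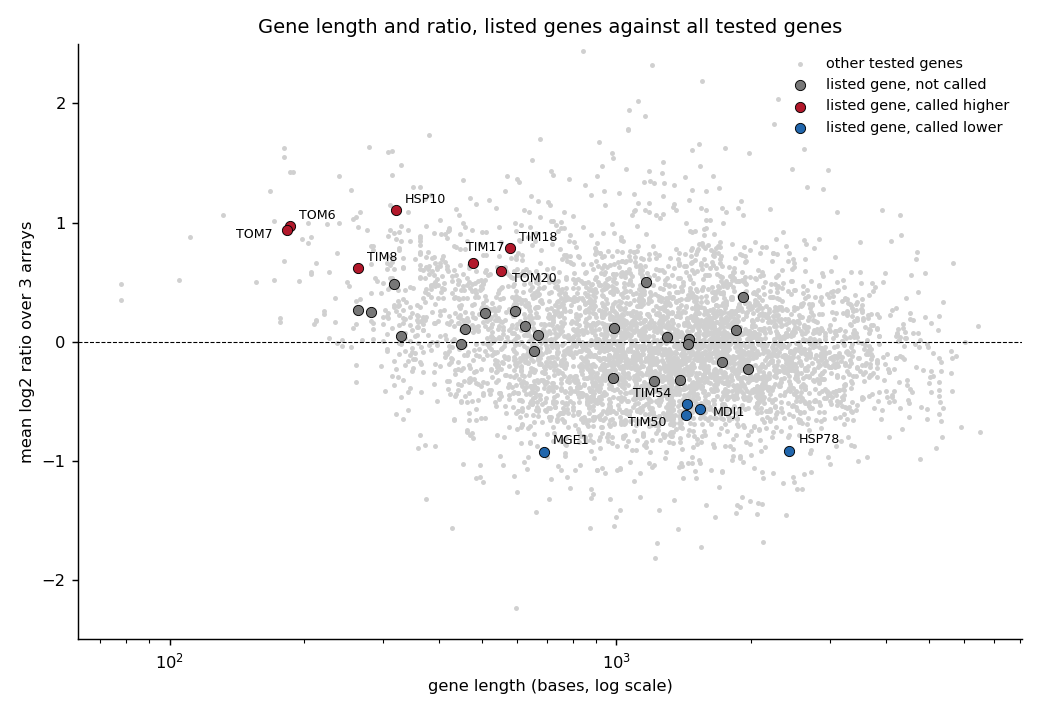
Mean log2 ratio over 3 arrays (y axis) against gene length in bases (x axis, log scale) for the listed genes, coloured by call, and the other tested genes in grey, with 8 genes beyond the y axis not drawn. The genes that rose sit at 579 bases or fewer, and those that fell at 687 or more.

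The shortest genes showed this most. Of the 8 listed genes up to 400 bases, 4 rose and 0 fell, with a median of 0.55, while 35.6% of all 275 tested genes of that length rose and 2.91% fell, with a median of 0.36. Between 800 and 1600 bases, 0 of 11 listed genes rose and 3 fell (median -0.31), while 10.1% of all genes of that length rose and 14.3% fell (median -0.080). Spearman's rho between length and mean ratio was -0.669 across the 35 listed genes and -0.162 across all tested genes. These are descriptions across genes that share 3 arrays, and genes are not independent replicates.

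A correction of each array's ratios for length, by a loess curve through all tested genes, separated the calls into those that held and those that did not. HSP10 stayed higher at 0.75 (limma adjusted p = 0.0125), TIM18 at 0.73 (0.0123) and TIM17 at 0.51 (0.0454). MGE1 stayed lower at -0.92 (0.00914), HSP78 at -0.82 (0.0149), TIM50 at -0.56 (0.0415) and MDJ1 at -0.52, just inside the threshold (0.0497). TOM6 went from 0.97 to 0.27 (0.390), TOM7 from 0.93 to 0.22 (0.306) and TIM8 from 0.62 to 0.15 (0.584), and none of these 3 passed any longer. TOM20 (0.52, 0.0719) and TIM54 (-0.47, 0.0598) also missed the threshold, with means that had changed little, and TOM40 entered at 0.56 (0.0430).

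With that correction, 8 of 35 listed genes were called, 4 upward and 4 downward, which is 22.9% beside 22.5% of all tested genes. The share of listed genes called was then close to the background. TIM9 and TIM10 went from 0.26 and 0.25 to -0.21 and -0.18, and the median of the small Tim chaperones from 0.26 to -0.18. The gap between HSP10 and HSP60 went from 1.27 to 0.87, and that between TIM18 and TIM54 from 1.31 to 1.20, each with 1 sign on the 3 arrays. The loess curve also removes any difference that genes of a length share for other reasons, and what lies behind the relation to length was not tested.

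**Figure D4:**
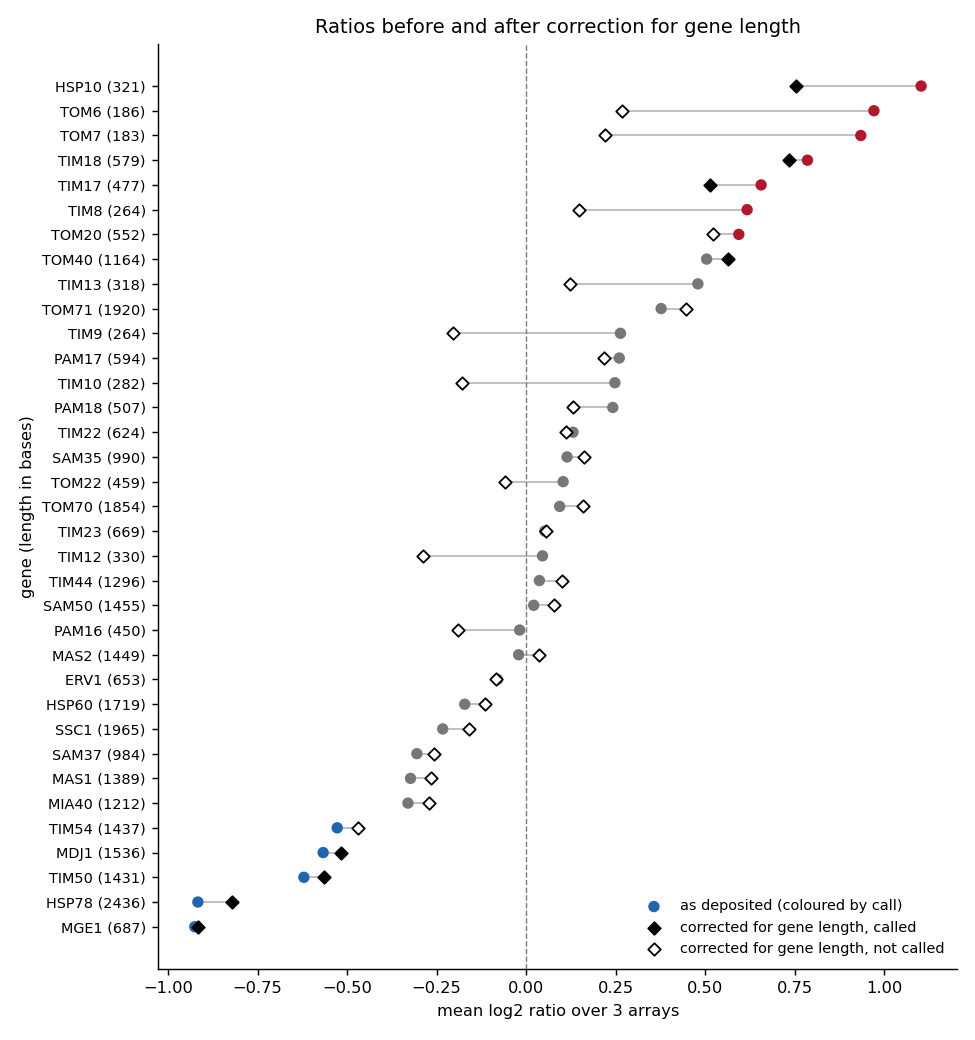
Mean log2 ratio of each listed gene as deposited (circles, coloured by call) and after correction for gene length (diamonds, filled where called), ordered by the deposited value, with length in bases beside each name. TOM6, TOM7 and TIM8 move toward 0, while MGE1, HSP78, TIM18 and HSP10 keep their calls.

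Further genes of the same pathway were read from lists of their own. Of 20 tested genes for other import, insertion and processing factors, 3 rose and 3 fell, which is 30% beside 23.5% of all tested genes. The median of -0.14 went to -0.059 without array 3. With the low-power scan of array 2 alone it was 0.29, over only the genes with a value on that scan. That fit tested 2686 genes instead of 4824, and how many of the 20 it held is not given here. The 2 medians may therefore cover different genes. MGR2, a TIM23 subunit gene, read 0.95, 1.13 and 1.18 (1.09 ± 0.12, limma adjusted p = 0.00325, and 0.77 corrected for length), and MIM1, which encodes an insertase of the outer membrane, read 0.78, 1.15 and 0.89 (0.94 ± 0.19, limma adjusted p = 0.00624, and 0.62 corrected for length). CYM1, the gene of the protease that degrades cleaved presequences, fell on all arrays at -0.68, -1.18 and -1.06 (-0.97 ± 0.26, limma adjusted p = 0.00670). TIM21 and PNT1 of this list also lay below 0, at means of -0.72 and -0.78 (-0.70 and -0.71 corrected for length). SOM1, the gene of a subunit of the inner membrane peptidase, read 1.41, 1.54 and 0.026, the same shape as TOM6, and lost its call with the length correction (0.42, adjusted p = 0.200).

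Of 17 tested genes for other matrix chaperones and quality control proteases, 1 rose and 2 fell, which is 17.6% beside 23.5% of all tested genes. Without array 1 there was 1 call, in a fit that called 12.0% of all tested genes. The median of 0.056 changed sign without array 1 (-0.0012) and without array 3 (-0.036). The 1 gene that rose, HSP31, encodes a stress-induced glyoxalase, and whether its product lies in the matrix was not checked here. Its mean was 1.44 ± 0.11 (limma adjusted p = 0.00152). PHB1, a prohibitin gene, fell to -0.71 ± 0.22 (limma adjusted p = 0.0180), and OMA1, an inner membrane protease gene, to -0.69 ± 0.47 (limma adjusted p = 0.0376). Of 12 tested genes for twin-cysteine proteins of the intermembrane space, the clients of Mia40, 0 passed the test in limma while 6 had an unadjusted p under 0.05. The share of all tested genes under that unadjusted cutoff is not given here. It is at least the 23.5% called after adjustment, so the 6 are not read as a result. The median of the 12 was 0.35, or -0.084 corrected for length. With array weights 5 of the 12 were called, in a fit that called 33.5% of all tested genes.

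The median of the import and matrix chaperone genes, 0.094, lay between those of cytosolic chaperone and of respiratory genes. Cytosolic chaperone genes stood at a median of -0.43, with 12 of 27 lower and 1 higher, or 48.1% called beside 23.5% of all tested genes. Without array 2 there were 7 calls, in a fit that called 10.2% of all genes. Nuclear genes for respiratory chain and ATP synthase subunits stood at 0.49, with 15 of 32 higher and 0 lower (46.9% called). Corrected for length they stood at 0.24 with 7 higher, in a fit that called 22.5% of all genes. Of the 32, 7 were called without array 1 and 8 without array 2, in fits that called 12.0% and 10.2% of all genes. The mitochondrial ribosomal proteins, chosen by symbol, stood at -0.13, with 4 of 68 higher and 6 lower, or 14.7% called, below the share of all genes. There were 6 calls among the 68 without array 1 and 5 without array 2, again beside 12.0% and 10.2% of all genes. The median went to -0.056 without array 2, -0.084 without array 3 and -0.26 corrected for length. These differences between lists were not tested, and the lists differ in length, with medians of 1233, 402 and 679.5 bases in that order.

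**Figure D5:**
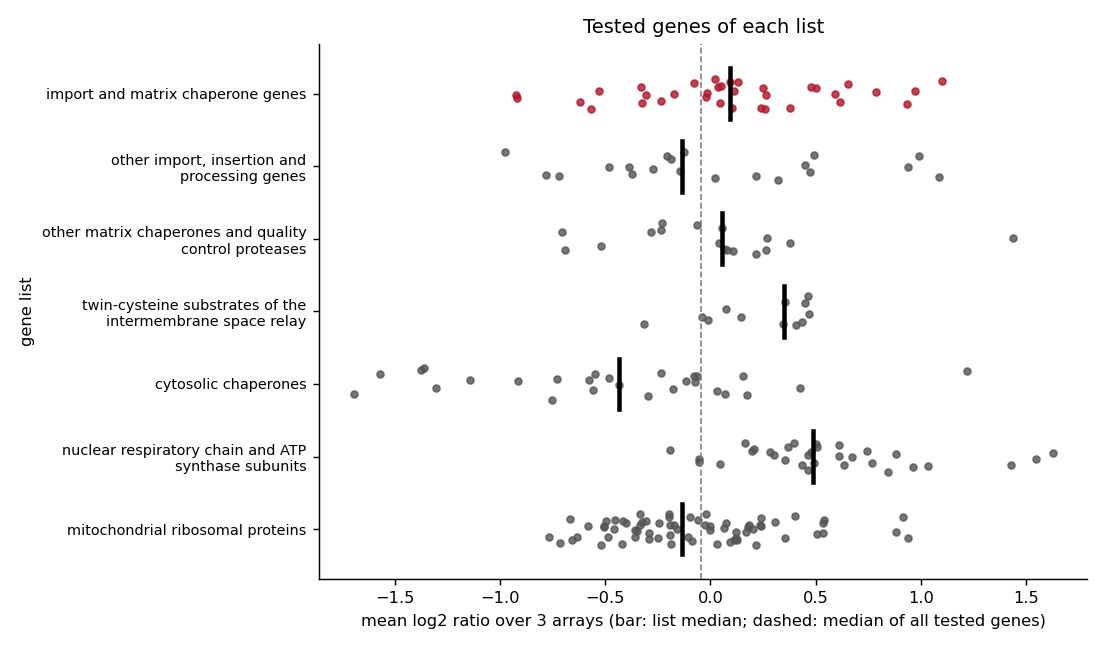
Mean log2 ratio over 3 arrays (x axis) of the tested genes of each list (points), with the list median as a bar and the median of all tested genes, -0.044, as a dashed line. The import and matrix chaperone genes spread from -0.93 to 1.10 around a median of 0.094.

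Arrays 1 and 2 were closest to each other over the listed genes. Pearson's r across the 35 genes was 0.847 between arrays 1 and 2, 0.642 between arrays 1 and 3 and 0.579 between arrays 2 and 3, beside 0.693, 0.651 and 0.606 across all tested genes. The sign was shared by the 3 arrays in 25 of 35 listed genes, or 71.4%, beside 59.4% of all tested genes. The SD over arrays was lowest for PAM17, at 0.028, and highest for TOM6, at 0.84, around a median of 0.26 for the listed genes and 0.25 for all. High- and low-power scans of array 2 both held 27 of the listed genes, with a median gap of 0.12 between the scans and a largest gap of 0.39, that of PAM16 (0.075 and -0.32). Both scans of array 3 held 29, with a median gap of 0.16 and a largest gap of 0.53, although its low-power scan was not used in the main fit. The 2 scans differed in sign for 5 listed genes on array 2 and for 2 on array 3. No listed gene neighbours another in the gene table, and the 36 genes lie on 14 chromosomes.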

How the data were processed

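The authors deposited log2 ratios of 2-colour arrays. Per the labels, LOWESS normalization used the spots whose flag value was 0. The log2 base was settled from the deposited values, whose minimum, -6.64, is the log2 of 0.01. For the scanner, image software and background correction, details were not given in the sources used here. Column medians were -0.0053, -0.023, -0.025, -0.013 and -0.0017 for array 1, the high- and low-power scans of array 2 and those of array 3. Scale and centring are therefore known, while direction stays unstated. The platform annotation names 1 gene for 5446 of the 6912 probes, several for 0 and none for 1466, and all 5446 were matched by gene ID to RefSeq's table (assembly R64). Probes of a gene were averaged, and each listed gene had 1 probe. No build is named for the array, so no coordinates are printed, and no sequences are shown.

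Each array was 1 replicate: array 1 its single scan, array 2 the mean of its scans or whichever held a value, and array 3 its high-power scan, because the series sets the low-power one aside. For the 4824 genes measured on every array, the mean was compared with 0 in limma 3.58.1 (lmFit, then eBayes; R 4.3.3). The test was two-sided, p-values were adjusted by Benjamini-Hochberg over all of these genes, and the threshold was 0.05. The error given after ± is the SD over 3 arrays. The p-values do not rest on that SD alone, because eBayes draws each gene's variance toward 1 shared by all genes (prior degrees of freedom 6.13). PAM17, with an SD of 0.028, was tested with a standard error of 0.14, and TOM6, with an SD of 0.84, with 0.28. The length correction subtracted a loess fit of each array's ratios on log2 length (span 0.4, degree 1). The fit was also run on simulated arrays with independent normal errors of the real genes' spread and some genes changed by known amounts. Those arrays held no shared array effect, length trend or dye bias, so they cannot show how such effects bear on the calls. All listed genes are named, and from each further pathway list up to 4 called genes of largest mean change. TIM21 and PNT1 are named besides these. Members, lists, pairs and alternatives were chosen with earlier results of these data known.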

Additional observations from a re-analysis of the deposited data

How the results depend on the processing

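Over 15 alternatives, the calls of HSP10, TIM18, MGE1 and HSP78 held wherever a value was given, 21 listed genes were never called, and no called gene changed sign. Among fits of single listed genes, 35 lost a call, 8 gained one and 474 did neither. With 1 array left out, genes called ran from 276 to 573 higher and 218 to 638 lower over all genes, and 4 to 5 higher and 2 to 4 lower among the listed ones. Fits without arrays 1, 2 and 3 called 12.0%, 10.2% and 25.1% of all genes, in that order. The fit without array 1 had an infinite prior, so all genes shared 1 variance. Left-out arrays also took the medians of SAM from -0.21 to 0.036, of the motor from -0.088 to 0.070, of matrix chaperones from -0.40 to -0.32, of other import factors from -0.100 to -0.059 and of respiratory genes from 0.44 to 0.49, and the calls of other matrix chaperones and proteases from 1 to 4, cytosolic chaperones from 7 to 15, respiratory genes from 7 to 14 and mitochondrial ribosomal proteins from 5 to 15. Corrected for length, 4 listed genes were higher, shorter minus longer listed genes went from 0.49 to 0.29, and medians were 0.27 for TOM channel and small subunits, -0.18 for small Tim chaperones, -0.32 for matrix chaperones, -0.084 for Mia40 clients, 0.24 for respiratory genes (7 called) and -0.26 for mitochondrial ribosomal proteins. The low-power scan of array 2 holds fewer genes, 2686 tested, of which 29.45% were called (349 lower). It gave 3 listed genes lower, MGE1, MDJ1 and TIM54. TIM50, HSP78 and the gene TIM23 had no value on that scan and were not in this fit. Medians were 0.17 for the listed genes, 0.68 for the TIM23 translocase, which is TIM17 alone, and -0.17 for matrix chaperones without HSP78. The median of other import factors with a value on that scan was 0.29. In the same fit 1 Mia40 client and 6 mitochondrial ribosomal proteins were called. How many of each list it held is not given here. The high-power scan of array 2 gave 3 listed genes lower, 1 Mia40 client and a respiratory median of 0.53, beside 22.13% of all genes called. Tested by probe, 3 listed genes were lower and 6 mitochondrial ribosomal proteins were called, beside 18.38% of all genes. Array weights gave a motor median of 0.10 and called 11 other import factors, 5 Mia40 clients and 19 mitochondrial ribosomal proteins, beside 33.5% of all genes. Centring arrays gave a matrix chaperone median of -0.33 and 2 Mia40 clients called, beside 23.49% of all genes. Centring within identifier groups gave 2 such clients, beside 25.79% of all genes. Both scans of array 3 gave 1 (22.77%), as did all scans with a random block (24.19%). Genes on at least 2 arrays also gave 1 (19.43%). The causes were not tested. No paired analysis was possible because there is a single group, with both channels on each array.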
